A study of Mus musculus with 12 samples.

Results

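The response of RAW264.7 cells to lipopolysaccharide (LPS) was described across all genes in cells that carried a control small interfering RNA (siRNA). RAW264.7 is a mouse macrophage-like cell line, and LPS is a cell wall component of Gram-negative bacteria. The comparison took 6 of the 12 libraries of the study, chosen by their labels: 3 with control siRNA collected at 0 h without LPS, and 3 with control siRNA collected after 4 h with 100 ng/ml LPS. The other 6 libraries came from cells with an siRNA against Synbindin, encoded by Trappc4, under the same conditions, and entered the filter on low values, the estimate of spread and 1 comparison below. Per the labels, all cells were between passages 3 and 5 and grew in DMEM with 10% fetal bovine serum, and library preparation was strand-specific. The results are those of 1 cell line, 1 dose and 1 time. Cells that received no siRNA were not analysed here, so the transfection was common to both groups. Replicates carried only a number in the labels, and p-values therefore measure a spread between libraries that may be technical.

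In macrophages, LPS is bound by CD14 and by the receptor complex of TLR4 and MD-2. The adaptors MyD88 and TRIF carry the signal from there. MyD88 signalling acts early on NF-kB and MAP kinases, which induce cytokines and chemokines, whereas TRIF signalling activates IRF3 and interferon-beta, which in turn induces a second set of genes through its own receptor. Both branches also induce their own inhibitors, and activated macrophages are known to change their metabolism, surface receptors and cell division.

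Levels are in FPKM, fragment counts divided by transcript length and by the sequencing depth of each library, so levels of different genes can be set side by side. Differences are log2 fold changes from limma on log2(FPKM + 1), LPS minus none, given with their standard error (SE). They understate changes of genes near 0, and for a gene listed at 0 in 1 group they depend on the added 1. A gene was said to rise or fall where the Benjamini-Hochberg adjusted p over 13078 genes was under 0.05, and for a named gene the values in replicates 1, 2 and 3 follow in that order. The number of genes at FPKM 1 or more was 11739 to 12351 per library. Estimated depth was 7.85 to 11.6 M (mega) fragments without LPS and 10.1 to 13 M after LPS. Few low values lay on the steps behind these estimates, so they do not establish which libraries were deeper. The part of depth in the results was not tested. Spearman correlations over genes were 0.958 to 0.969 between libraries of a group and 0.853 to 0.877 between groups. In bulk RNA, fewer cells with a transcript and less of it per cell cannot be told apart.

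The libraries carried the RNA of a macrophage-like cell. Of 10 macrophage markers 9 were expressed above the filter, with summed levels of 1578 to 1732 FPKM without LPS and 1497 to 1895 after it. The marker not expressed was Mertk, an apoptotic cell receptor, listed at 0.0595 FPKM or less in the 6 libraries. Cd68, a lysosomal glycoprotein, had 439 ± 30.0 FPKM (SD, n = 3) without LPS and 453 ± 58.1 after it (0.04 ± 0.10, not called, but -0.38 with quantile normalization and an adjusted p of 0.00978). Dendritic cell markers summed to 0.683 to 2.11 FPKM without LPS and 2.79 to 3.89 after it, the higher sum being that of Xcr1, which rose from 0.0855, 0.338 and 0.0592 to 3.55, 2.05 and 2.81 FPKM, while Siglech was at 1.92, 1.32 and 0.432 FPKM without LPS and at 0.183, 0.439 and 0.127 FPKM after it. Summed markers of B cells, T and NK cells, neutrophils, mast cells, fibroblasts, epithelium and endothelium reached at most 0.524 FPKM in any of the 6 libraries. The silenced gene of the other arm, Trappc4, was at 14.1, 13.1 and 12.5 FPKM without LPS and at 13.8, 15.7 and 9.45 FPKM after it in these control siRNA cells, with overlapping groups. In the Synbindin siRNA libraries it was at 4.35, 7.17 and 6.15 FPKM without LPS and at 5.86, 7.71 and 8.26 FPKM after it, below all 6 control siRNA libraries.

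LPS changed the levels of 48.2% of the genes tested. Of 13078 genes, 1997 rose (15.3%) and 4303 fell (32.9%), and in 56.2% the libraries of the 2 groups did not overlap. On the log2(FPKM + 1) scale the median change was 0.72 for genes that rose and -0.69 for genes that fell, so typical sizes were alike. By at least 2-fold 733 genes rose (5.6%) and 1036 fell (7.92%), and rises outnumbered falls only among larger changes. By at least 4-fold 279 rose and 72 fell, and by at least 8-fold 105 rose and 2 fell. The added 1 limits how far genes of low level can fall on this scale and sets no such limit on rises. The 279 genes that rose by at least 4-fold went from 0.664% ± 0.0520 to 8.63% ± 1.08 of all FPKM (SD, n = 3). The 1036 genes that fell by at least 2-fold went from 4.68% ± 0.204 to 1.53% ± 0.118. Both sets were picked by their change in these same libraries, so the direction of their shares was fixed in advance and only their size is described. In the plot of change against level, the falls lie in a broad band and the rises spread upwards.

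**Figure D1:**
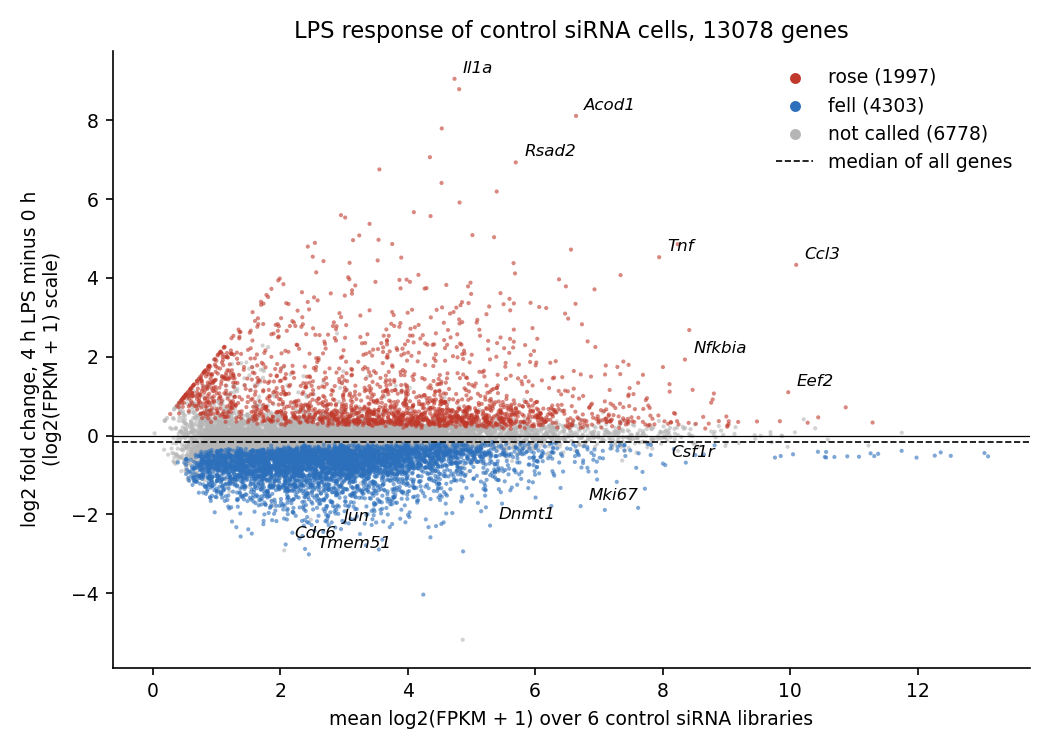
Log2 fold change with LPS (vertical, log2(FPKM + 1) scale) against mean level (horizontal, log2(FPKM + 1) over 6 libraries) for 13078 genes; red points rose (1997), blue points fell (4303), grey points were not called, and the dashed line is the median of all genes at -0.17. Rises extend to 9.05 for Il1a, and the deepest called fall is -4.03, for C130050O18Rik.

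The balance of rises and falls depended on the scaling. The median log2 fold change of all genes was -0.17 as deposited, and scaling to the median ratio of genes shifted changes upwards by a median of 0.19, less in genes near 0. With that scaling 3158 genes rose and 2940 fell, with quantile normalization 2502 rose and 3370 fell, and with a common sum that left out mitochondrially encoded genes 1597 rose and 5260 fell. In all 4 scalings the same 1516 genes rose (11.6%) and the same 2675 fell (20.5%). The mitochondrially encoded mRNAs moved with these totals: they took 16.1%, 16.9% and 15.6% of all FPKM without LPS and 10.9%, 11.2% and 11.7% after it, groups that did not overlap (2-sided exact permutation p = 0.1, the smallest that 3 against 3 libraries allow). A count of called members is read against the 15.3% and 32.9% of all genes, and for most lists whose main count shrank by over 1.5 times the number called in all 4 scalings is given. The lists and their members were chosen with earlier results of these data known. A count above or below those shares is therefore a description of the list and no test of it.

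**Figure D2:**
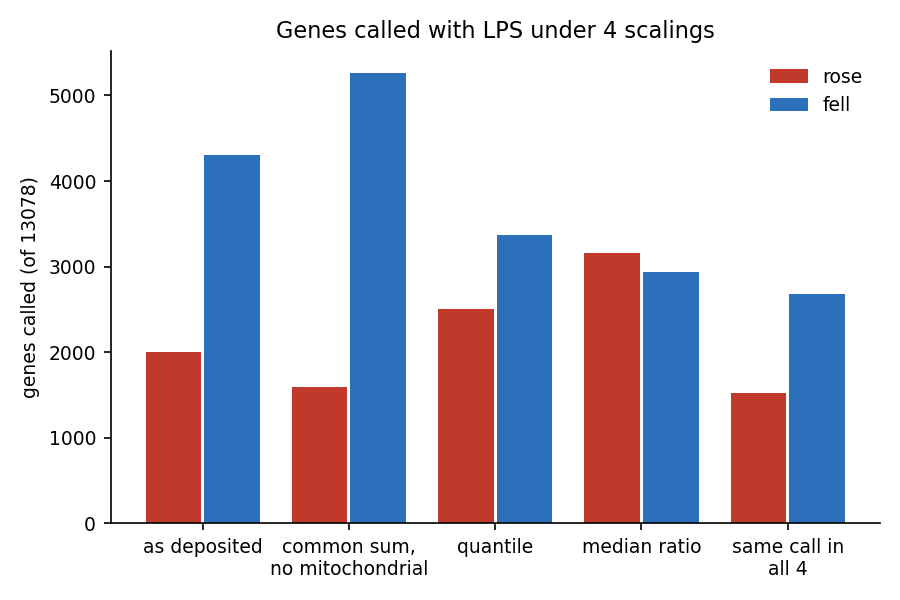
Number of genes that rose (red) or fell (blue) with LPS in control siRNA cells, of 13078 tested, as deposited, under 3 other scalings and with the same call in all 4. Falls outnumber rises as deposited (4303 against 1997) and rises outnumber falls with median-ratio scaling (3158 against 2940).

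Among the components that sense LPS, the co-receptor and both adaptors rose. Of 25 tested members of the receptor and adaptor list 9 rose and 5 fell, 3 of these in all 4 scalings, with a median of 0.15. Cd14, the LPS co-receptor, was at 189.8, 199 and 172 FPKM without LPS and at 475, 475 and 297 FPKM after it, a change of 1.12 ± 0.20 without overlap. Myd88 and Ticam1 (TRIF), the adaptors, rose by 1.25 ± 0.09 and 1.06 ± 0.15. Ikbke, a kinase that phosphorylates IRF3, had the largest change of the list, from 0.912, 1.13 and 1.43 to 31.4, 25.3 and 43.4 FPKM (3.97 ± 0.19, limma adjusted p = 3.15e-08). Ripk1, a kinase shared by TNF receptor and TRIF signalling, fell by 0.89 ± 0.10. Tlr4 itself, named after its values were seen, was listed at 2.18, 3.15 and 19.1 FPKM without LPS and at 5.48, 7.84 and 7.34 FPKM after it. Those groups overlapped, with replicate 3 without LPS far above the rest, and no change was called (adjusted p = 0.777).

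Sensors of other microbial products rose in 13 of 19 cases (median 1.27), and 1 fell. The 3 cytosolic RNA sensors moved together: Ifih1 (MDA5) went from 3.45 ± 0.945 to 73.3 ± 9.63 FPKM, Ddx58 (RIG-I) from 9.17 ± 3.14 to 62.6 ± 12.4 and Dhx58 (LGP2) from 8.15 ± 2.73 to 53.0 ± 9.72 (SD, n = 3). Zbp1, a sensor of Z-form nucleic acid that can trigger necroptosis, rose by 3.60 ± 0.25. Nod2, the sensor of bacterial muramyl dipeptide, was at 0.678, 0.106 and 0.882 FPKM without LPS and at 7.55, 7.75 and 9.19 after it. Clec4e (Mincle), a lectin for mycobacterial glycolipid, rose by 2.85 ± 0.16. The member that fell was Tlr13, a sensor of bacterial ribosomal RNA, at -1.88 ± 0.15, named here as the only fall of the list.

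Most NF-kB subunits and IkB proteins rose, 10 of 14, with a median of 1.36, and 1 fell as deposited but not in all 4 scalings. Nfkb1 and Nfkb2, the precursors of p50 and p52, rose by 2.35 ± 0.07 and 2.69 ± 0.08. The inhibitors Nfkbie, Nfkbib and Nfkbia rose by 2.71 ± 0.13, 2.30 ± 0.11 and 1.93 ± 0.12, and Nfkbiz, a nuclear IkB protein known mainly as a coactivator, by 2.50 ± 0.14. Nfkbia, the inhibitor that is rebuilt after each NF-kB pulse, was the most abundant of these, at 162, 171 and 165 FPKM without LPS and at 657, 559 and 699.8 FPKM after it.

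Of 18 proteins that restrain NF-kB or destabilise inflammatory mRNAs, 8 rose and 4 fell, 2 of these in all 4 scalings (median 0.31). Peli1, a ubiquitin ligase, was at 8.08, 8.63 and 6.82 FPKM without LPS and at 81.6, 77.0 and 90.0 FPKM after it (3.25 ± 0.10). The mRNA-degrading Regnases Zc3h12a and Zc3h12c rose by 2.05 ± 0.08 and 2.88 ± 0.14, and Zfp36 (tristetraprolin), which binds AU-rich elements, by 2.08 ± 0.14. Its paralogue Zfp36l2 went the other way, from 50.9, 47.1 and 53.3 to 12.3, 12.5 and 11.7 FPKM (-1.96 ± 0.08, limma adjusted p = 9.14e-09). Tnfaip3 (A20), the deubiquitinase that ends NF-kB signalling, was at 19.1 and 17.8 FPKM in LPS replicates 1 and 2 and at 42.2 FPKM in replicate 3, against 4.86 to 5.75 FPKM without LPS.

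Genes of feedback on MAP kinases and on cytokine receptors moved in both directions. Of 13 tested MAP kinase phosphatases and Sprouty-family genes 5 rose and 5 fell (38.5% each), the falls near the 32.9% of all genes. In all 4 scalings, or without the LPS replicate 3, 3 fell. Dusp5, Dusp2, Dusp1, Dusp4 and Dusp16, phosphatases of MAP kinases, rose by between 1.15 and 3.05, whereas Spred2, an inhibitor of the Ras-ERK cascade, fell by 1.88 ± 0.12 on the log2 scale. Among 16 SOCS and JAK-STAT genes 7 rose (43.8%) and 4 fell (25%). Socs3, which blocks gp130 receptors, was at 4.45, 4.52 and 4.14 FPKM without LPS and at 70.6, 61.8 and 81.5 FPKM after it. Cish had 0 FPKM in each library without LPS and was at 3.49, 3.05 and 4.88 FPKM after it. Jak2, the kinase of several cytokine receptors, rose by 2.31 ± 0.13.

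Immediate-early and stress transcription factors rose in 17 of 44 cases (38.6%, against 15.3% of all genes), and 14 fell (31.8%), a share near the 32.9% of all genes (median 0.17). Myc, a driver of growth, was at 5.47, 3.88 and 4.08 FPKM without LPS and at 53.3, 45.8 and 40.3 FPKM after it (3.12 ± 0.14). Jun, an AP-1 subunit, went from 14.4, 14.4 and 17.3 to 2.84, 2.58 and 1.49 FPKM (-2.33 ± 0.19, limma adjusted p = 2.19e-06). Neither pair of groups overlapped. Hivep3, a zinc finger protein that binds kB-like sites, rose by 2.75 ± 0.24 and Cebpd, a C/EBP factor, by 2.12 ± 0.11. Id3, which blocks E-box factors, fell by 2.02 ± 0.13 on the log2 scale.

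Of 16 IRF and STAT genes 10 rose, and 1 fell as deposited but not in all 4 scalings (median 0.66). Irf4 was at 0.458, 0.453 and 0.405 FPKM without LPS and at 8.40, 6.63 and 13.3 FPKM after it. Irf1 rose by 2.54 ± 0.16 and Irf7, the amplifier of type I interferon, by 1.90 ± 0.16. Stat2, which carries the interferon signal, rose by 2.35 ± 0.15, and Stat5a by 2.54 ± 0.17.

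Factors of the macrophage lineage mostly fell: 9 of 17 fell in all 4 scalings and 3 rose (median -0.71). Fli1, an ETS factor of blood cells, was at 11.3, 11 and 14.6 FPKM without LPS and at 2.31, 2.57 and 2.02 FPKM after it. Bach1, a haem-regulated repressor, fell by 1.56 ± 0.12, Tfeb, a regulator of lysosome and autophagy genes, by 1.29 ± 0.25, and Mef2c and Runx1 by 1.27 ± 0.16 and 1.14 ± 0.11 on the log2 scale. Spi1 (PU.1), the master factor of the lineage, moved opposite to these, from 95.2, 88.1 and 83.1 to 153, 155 and 149 FPKM (0.77 ± 0.07).

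**Figure D3:**
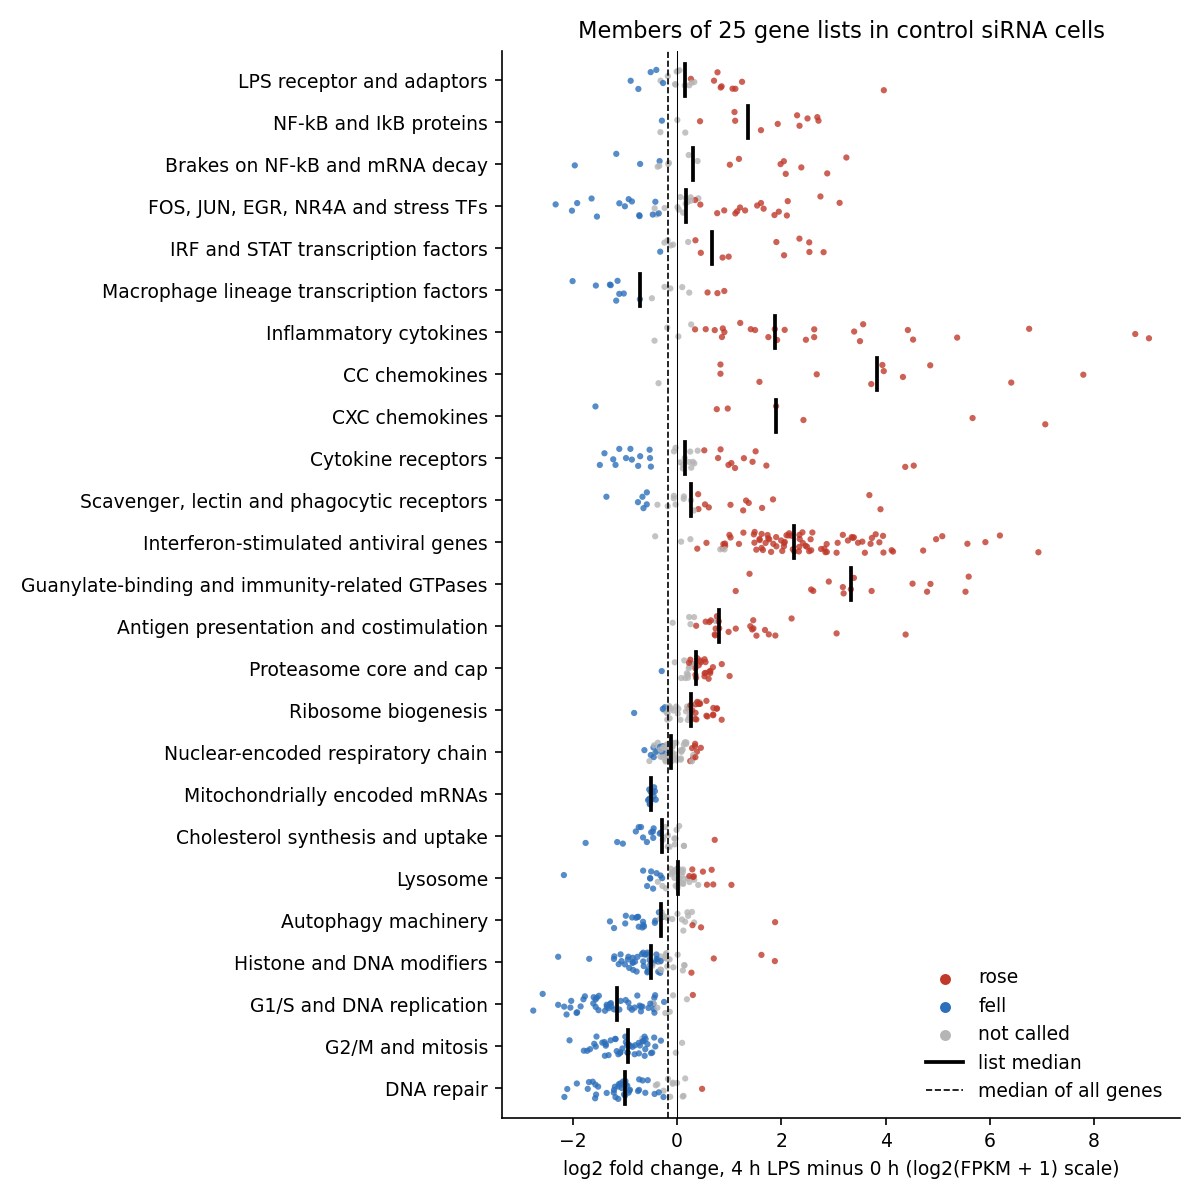
Log2 fold change with LPS (horizontal) of each tested member of 25 gene lists; red points rose, blue points fell, grey points were not called, black bars are list medians and the dashed line is the median of all genes (-0.17). List medians run from 3.83 for CC chemokines to -1.16 for G1/S and DNA replication genes.

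Secreted cytokines included the largest rise of all genes tested. Of 29 tested cytokines 25 rose and 4 were not called (median 1.87). Their median level without LPS was 0.64, 0.28 and 0.69 on the log2(FPKM + 1) scale. Members under FPKM 1 at 0 h tended to pass the filter through LPS libraries, so the count of rises was partly fixed by it. Il1a, an alarmin of the interleukin-1 family at chr2:129299610-129309972, was at 0, 0.0414 and 0.481 FPKM without LPS and at 589, 543 and 719 FPKM after it. Il27, an IL-12 family subunit, rose from 0.643 ± 0.0822 to 67.4 ± 7.71 FPKM (SD, n = 3), and Csf1, the growth factor of macrophages themselves, from 0.387 ± 0.148 to 28.8 ± 3.24. Its receptor Csf1r fell over the same time, from 335, 313 and 335 to 214, 236 and 158 FPKM (-0.71 ± 0.15, limma adjusted p = 2.76e-03). Csf2 (GM-CSF) had 0 FPKM in each library without LPS and was at 9.84, 12.6 and 6.95 FPKM after it. Il18, which caspase-1 matures, rose by 1.41 ± 0.17.

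Chemokines were among the most abundant induced mRNAs. Of 12 tested CC chemokines 11 rose and 1 was not called (median 3.83). Their median level without LPS was 0.82, 0.84 and 1.06 on the log2(FPKM + 1) scale. The limit that the filter sets on the cytokine count therefore holds here too. Ccl3 (MIP-1 alpha) was at 247, 224 and 258 FPKM without LPS and at 4765, 4542 and 5473 FPKM after it, and its neighbour Ccl4 went from 55.7 ± 9.92 to 1626 ± 138 FPKM. Ccl2, which recruits monocytes, rose by 3.97 ± 0.24, and Ccl9 from 134 ± 5.88 to 866 ± 53.3 FPKM. Ccl17, a ligand of CCR4 on T cells, had 0 FPKM in each library without LPS and was at 16.1, 12.7 and 14.4 FPKM after it. Of 7 CXC and CX3C chemokines, with median levels of 0.73, 0.88 and 0.29 without LPS on that scale, 6 rose. Among them Cxcl16, a membrane-bound ligand of CXCR6, rose by 2.42 ± 0.11. The member that fell was Cxcl14, from 13.2, 16.9 and 14.1 to 3.78, 4.14 and 5.00 FPKM (-1.57 ± 0.12). Cytokines and chemokines together, 73 genes, took 0.312% ± 0.0241 of all FPKM without LPS and 3.57% ± 0.403 after it, 11.4 times as much, and the groups did not overlap (2-sided exact permutation p = 0.1).

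Cxcl2, a neutrophil chemokine, is shown because its promoter holds 2 matches to kB letters, the pattern that NF-kB dimers bind, written GGG, any 2 bases, then TTTCC. It was at 0.657, 0.843 and 0.793 FPKM without LPS and at 219.9, 208 and 283 FPKM after it. The stretch runs from 250 bases before the RefSeq start to the first base before any GENCODE exon (222 bases, chr5:90903649-90903870, plus strand, GRCm38.p6, sequence from RefSeq), 5′ to 3′. Capitals mark the matches, which begin 97 and 78 bases before the start.
Cxcl2: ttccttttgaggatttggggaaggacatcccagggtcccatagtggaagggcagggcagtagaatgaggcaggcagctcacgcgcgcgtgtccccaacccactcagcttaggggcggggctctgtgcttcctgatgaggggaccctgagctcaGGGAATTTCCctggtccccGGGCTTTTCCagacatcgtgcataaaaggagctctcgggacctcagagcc

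Of 14 growth factors 5 rose and 5 fell (35.7% each), the falls near the share of all genes. Hbegf, a ligand of the EGF receptor, rose by 2.76 ± 0.21, Vegfc, a lymphatic growth factor, from 2.93 ± 0.271 to 14.8 ± 0.560 FPKM, and Pdgfb from 68.9 ± 1.10 to 197 ± 1.64 FPKM (SD, n = 3). Adm (adrenomedullin), a vasodilator peptide, fell by 1.31 ± 0.31 on the log2 scale. Among 16 tested proteases and coagulation genes 9 rose and 2 fell, 1 of these in all 4 scalings (median 0.51). Plaur, the urokinase receptor, was at 17.0, 17.0 and 11.4 FPKM without LPS and at 159, 157 and 168 FPKM after it. The gelatinase Mmp9 rose by 2.78 ± 0.16. Of 11 complement and acute phase genes 6 rose, among them Cfb (factor B) by 2.07 ± 0.30.

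Of 37 cytokine receptors 12 rose (32.4%, against 15.3% of all genes) and 13 fell (35.1%), a share near the 32.9% of all genes (median 0.15). Fas, a death receptor, was at 0.189, 0.0930 and 0.269 FPKM without LPS and at 25, 24.9 and 29.8 FPKM after it (4.54 ± 0.12). Tnfrsf1b, TNF receptor 2, went from 9.35, 10.1 and 10.9 to 225, 188 and 287 FPKM. Il15ra, which presents IL-15 to other cells, rose by 1.71 ± 0.18. Tgfbr2, the binding receptor of TGF-beta, fell by 1.48 ± 0.16 on the log2 scale.

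On the log2(FPKM + 1) scale, G protein-coupled receptors held both the largest rise and the deepest fall among the receptor lists. Of 28 tested receptors and RGS proteins 13 rose and 6 fell (median 0.32). Ccrl2, an atypical receptor that presents chemerin, was at 0.776, 0.216 and 0.987 FPKM without LPS and at 52.9, 46.9 and 63.4 FPKM after it. Gpr84, a receptor of medium-chain fatty acids, went from 11.7 ± 2.52 to 154 ± 23.3 FPKM and Hcar2, the niacin receptor, from 1.66 ± 0.312 to 18.6 ± 3.25 FPKM. Both receptors below hold cells in place or guide their exit. S1pr1, the sphingosine-1-phosphate receptor, was at 4.57, 4.78 and 6.83 FPKM without LPS and at 0.127, 0 and 0.0929 FPKM after it (-2.56 ± 0.20, limma adjusted p = 1.51e-06). Cxcr4, the receptor of CXCL12, went from 3.96, 4.53 and 3.67 to 0.185, 0.164 and 0 FPKM (-2.18 ± 0.16).

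Of 27 scavenger, lectin and phagocytic receptors 12 rose and 6 fell (median 0.27). Olr1, a receptor of oxidised LDL, was at 1.72, 1.13 and 1.48 FPKM without LPS and at 28.9, 27.1 and 35.8 FPKM after it. Axl, a receptor for apoptotic cells, rose by 1.84 ± 0.12. Trem2, a lipid receptor that signals through DAP12, fell from 38.3, 35.8 and 45.7 to 16.4, 15 and 13.5 FPKM, and Tyrobp, which encodes DAP12, from 417 ± 11.6 to 259 ± 18.9 FPKM. Lilrb4a, an inhibitory receptor with near-identical neighbours, was listed at 14.2, 0 and 4.01 FPKM without LPS, so its split of reads from its copies is uncertain. Among 21 adhesion molecules 10 rose and 2 fell, 1 of these in all 4 scalings. Icam1, the ligand of LFA-1, went from 22.3 ± 2.57 to 108 ± 6.33 FPKM, Itga5, the fibronectin receptor chain, rose by 1.55 ± 0.09, and Itga4, the VLA-4 chain, fell by 0.91 ± 0.11 on the log2 scale.

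Interferon-stimulated genes rose almost as a block: 80 of 85 tested members rose, 79 of them in all 4 scalings, and the other 5 were not called (median 2.25). Isg15, a ubiquitin-like modifier, was at 21.3, 25.1 and 9.73 FPKM without LPS and at 445, 413 and 618 FPKM after it. Cmpk2, a mitochondrial nucleotide kinase next to Rsad2, went from 5.21 ± 3.06 to 189 ± 31.9 FPKM, and Usp18, which removes ISG15 and blocks the interferon receptor, from 14.6 ± 6.41 to 161 ± 22.1. Ifit3, a binder of foreign RNA whose near-identical copy Ifit3b makes the split uncertain, rose by 5.57 ± 0.28. Slfn2, a Schlafen protein, rose from 35.8, 36.9 and 26.4 to 451, 399.9 and 475 FPKM.

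The starting level of these genes differed between libraries. The median level of the list on the log2(FPKM + 1) scale was 3.77, 3.82 and 2.89 without LPS and 5.77, 5.73 and 6.0 after it. Replicate 3 without LPS was thus the lowest and LPS replicate 3 the highest of its group, and a part of this spread in the results was not tested beyond leaving libraries out. Without the 0 h replicate 3, 80 members rose with a median of 2.11, and without the LPS replicate 3, 80 rose with a median of 2.22.

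Guanylate-binding proteins and immunity-related GTPases, which attack the vacuoles of intracellular microbes, rose in 15 of 15 cases and in all 4 scalings (median 3.33). Their median level without LPS was 0.51, 0.90 and 0.05 on the log2(FPKM + 1) scale. Members under FPKM 1 at 0 h tended to pass the filter through LPS libraries, so the count of rises was partly fixed by it. Gbp2 was at 0.308, 0.0250 and 0.0338 FPKM without LPS and at 51.4, 42.9 and 67.0 FPKM after it, with Gbp2b as a close copy. Gbp5 was at 0, 0.0756 and 0 FPKM without LPS and at 25.8, 24.6 and 32.7 FPKM after it. Gbp3 and Gbp7 rose by 4.86 ± 0.25 and 4.52 ± 0.28, and Igtp (Irgm3) by 3.73 ± 0.35. The 5 neighbours Gbp5, Gbp7, Gbp3, Gbp2b and Gbp2 form a run at chr3:142493978-142638008 in which every tested gene rose by between 4.52 and 5.59.

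A stretch before the RefSeq start of Gbp5 is shown as an example with an interferon-stimulated response element (ISRE) pattern. IRF and STAT complexes bind this pattern, written GAAA, any 2 bases, then GAAA. The stretch lies inside the GENCODE span of Gbp5 (chr3:142493978-142522344, plus strand), downstream of the first base of that span. The 216 bases run from 250 bases before the RefSeq start to the base before the GENCODE exon (chr3:142496684-142496899, plus strand, GRCm38.p6, sequence from RefSeq), 5′ to 3′. Capitals mark the match, which lies on the minus strand and begins 165 bases before the start.
Gbp5: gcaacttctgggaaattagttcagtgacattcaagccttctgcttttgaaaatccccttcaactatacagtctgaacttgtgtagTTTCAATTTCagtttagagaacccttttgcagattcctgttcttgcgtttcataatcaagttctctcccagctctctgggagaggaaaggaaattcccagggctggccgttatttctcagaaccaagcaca

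Antigen presentation and costimulation genes rose in 23 of 28 cases and were not called in 5 (median 0.80). Cd40, the receptor for help from T cells, was at 1.03, 0.908 and 0.668 FPKM without LPS and at 37.4, 34.4 and 42.3 FPKM after it (4.38 ± 0.13). Cd274 (PD-L1), an inhibitor of T cells, rose by 3.06 ± 0.13 and Cd80, a costimulator, by 1.89 ± 0.09. Tap1, the peptide transporter of class I loading, rose by 2.20 ± 0.11 and Nlrc5, the transactivator of class I genes, by 1.69 ± 0.17. Cd83, a marker of mature antigen-presenting cells counted with the adhesion molecules, went from 15.5 ± 3.73 to 146 ± 15.9 FPKM. Ifi30, a thiol reductase of antigen processing that was not counted in this list, fell by 0.92 ± 0.12 on the log2 scale.

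Of 21 inflammasome and pyroptosis genes 9 rose and 6 fell (median 0.18). Nlrp3, the inflammasome sensor, was at 11.5, 13.3 and 13.5 FPKM without LPS and at 113, 69.7 and 85.0 FPKM after it. Casp4 (caspase-11), which binds cytosolic LPS, went from 5.82 ± 0.447 to 47.1 ± 7.49 FPKM. P2rx7, the ATP-gated channel that triggers NLRP3, fell from 10.7, 11.1 and 9.03 to 2.82, 2.58 and 2.57 FPKM (-1.62 ± 0.10, limma adjusted p = 2.29e-07). Nlrp10, an NLR family member, fell by 1.65 ± 0.14 on the log2 scale.

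Enzymes that make defence metabolites rose in 9 of 15 cases, 7 of them in all 4 scalings (median 0.34). Acod1, the itaconate-making enzyme at chr14:103046977-103056573, was at 6.97, 5.27 and 3.33 FPKM without LPS and at 1613, 1483 and 1911 FPKM after it. Gch1, which makes the cofactor of nitric oxide synthase, rose by 2.21 ± 0.10. Odc1, the entry enzyme of polyamine synthesis, went from 49.0 ± 9.20 to 259 ± 16.0 FPKM.

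Of 28 redox genes 13 rose (46.4%, against 15.3% of all genes) and 6 fell (21.4%, against 32.9%), with a median of 0.22. Srxn1, which repairs oxidised peroxiredoxins, rose by 2.94 ± 0.19 and Slc7a11, the cystine importer, by 2.03 ± 0.12. Gclc, the catalytic subunit of the enzyme that starts glutathione synthesis, went from 48.9, 49.9 and 50.3 to 9.27, 11 and 9.94 FPKM (-2.20 ± 0.08, limma adjusted p = 6.04e-09). Gsr, which recycles glutathione, fell by 1.33 ± 0.15 on the log2 scale. All 4 of these genes are known targets of NRF2, and they did not share a direction.

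In eicosanoid synthesis 3 of 14 genes rose and 6 fell, 4 of these in all 4 scalings. Ptgs2 (COX-2), the inducible prostaglandin synthase, was at 0.650, 0.387 and 0.737 FPKM without LPS and at 43.5, 42.0 and 61.5 FPKM after it. Ptges, the PGE2 synthase, rose by 1.20 ± 0.18, whereas Hpgds, a PGD2 synthase, fell by 1.57 ± 0.12 and Pla2g4a, the phospholipase that frees arachidonic acid, by 1.10 ± 0.12 on the log2 scale. For metals, 5 of 21 genes rose and 7 fell (33.3%, near the share of all genes). Slc11a2 and Slc11a1, divalent metal importers of the endosome and phagosome, rose from 6.80 ± 1.11 to 32.5 ± 3.66 FPKM and from 9.04 ± 0.796 to 27.4 ± 2.61 FPKM. Slc40a1 (ferroportin), the iron exporter, went from 1.76, 0.968 and 3.19 to 0.224, 0.132 and 0.235 FPKM.

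Osteoclast genes, which RAW264.7 cells are known to express when they fuse, rose in 8 of 13 cases and fell in 3 (median 0.81). Src, a kinase needed for the ruffled border, was at 3.50, 3.74 and 3.43 FPKM without LPS and at 38.2, 36.4 and 42.9 FPKM after it. The fusion genes Ocstamp and Dcstamp rose by 2.43 ± 0.15 and 1.45 ± 0.22, and Car2, the acid-forming carbonic anhydrase, by 1.34 ± 0.13.

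Among 39 survival and death genes 16 rose and 10 fell (median 0.14). The A1 family of BCL2 relatives, whose copies share sequence so that the split between them is uncertain, rose together: Bcl2a1a by 3.82 ± 0.10, Bcl2a1d by 3.35 ± 0.12 and Bcl2a1b by 2.97 ± 0.10. Gadd45b, a stress protein, went from 7.72 ± 1.19 to 73.9 ± 13.1 FPKM. Cflar (c-FLIP), a caspase-8 inhibitor, was at 37.4, 14.1 and 48.6 FPKM after LPS against 3.54 to 7.04 without it, so LPS replicate 2 stood below replicates 1 and 3.

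Genes of DNA replication and division fell together. Of 54 G1/S and replication genes 47 fell, 39 of them in all 4 scalings, and 1 rose (median -1.16). Ccne1 (cyclin E1) went from 13.8, 15.2 and 10.1 to 2.04, 2.58 and 1.70 FPKM and Gmnn (geminin), which restrains origin licensing, from 29.6 ± 4.76 to 4.06 ± 1.67. Dnmt1, the maintenance DNA methyltransferase, was at 85.7, 83.9 and 86.8 FPKM without LPS and at 18.8, 23.3 and 10.7 FPKM after it. Of 50 G2/M genes 47 fell and 3 were not called (median -0.95), 39 of them in all 4 scalings. Kif11, the mitotic kinesin Eg5, fell by 1.67 ± 0.26 and Anln (anillin) by 1.72 ± 0.28 on the log2 scale. Among all 26 tested kinesins 21 fell (median -1.08).

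Regulators of the cycle on both sides fell. Of 22 cyclins, E2F factors and inhibitors 17 fell and 4 rose (median -0.87). E2f8, a repressor of E2F targets, fell by 1.87 ± 0.20 and the inhibitors Cdkn1b (p27) and Cdkn2c (p18) by 1.64 ± 0.15 and 1.66 ± 0.28 on the log2 scale, as did Rbl2 (p130), which holds cells in quiescence, by 1.70 ± 0.11. Cdkn1a (p21), named after its values were seen, moved the other way, from 97.9, 108 and 76.1 to 266, 287 and 276 FPKM. Of 53 DNA repair genes 41 fell and 1 rose (median -0.99). Brca1 and Msh6, of recombination and mismatch repair, fell by 2.16 ± 0.16 and 2.11 ± 0.13. LPS replicate 3 held the lowest median level of the G1/S list, 2.78 against 3.17 and 3.20 in replicates 1 and 2 on the log2 scale. Without it 39 of the 54 G1/S and 41 of the 50 G2/M genes fell.

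Stretches before the starts of Mcm5 and Mki67 are shown because they hold patterns of the factors that time these genes. Mcm5, a replicative helicase subunit named after its values were seen, was at 59.0, 57.2 and 50.8 FPKM without LPS and at 31.3, 37.5 and 21.0 FPKM after it (-0.91 ± 0.20). Mki67, which encodes the proliferation antigen Ki-67, went from 169.8, 187 and 229.9 to 55.1, 63.9 and 48.5 FPKM, and neither pair of groups overlapped. The E2F letters are TTTNNCGC, and the CHR letters, TTTGAA, are bound by the MuvB complexes of late cell cycle genes. Both stretches hold 250 bases before the RefSeq start in GRCm38.p6, 5′ to 3′ (Mcm5 chr8:75109259-75109508, plus strand; Mki67 chr7:135716380-135716629, minus strand). Capitals mark 2 overlapping E2F matches in Mcm5, from 153 bases before the start, and 2 CHR matches in Mki67, from 116 and 98 bases before it.
Mcm5: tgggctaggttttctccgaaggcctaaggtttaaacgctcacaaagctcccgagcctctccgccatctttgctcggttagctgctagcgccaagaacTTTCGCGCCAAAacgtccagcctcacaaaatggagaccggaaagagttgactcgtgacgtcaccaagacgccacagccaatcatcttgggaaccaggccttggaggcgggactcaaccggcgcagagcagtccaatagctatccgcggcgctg
Mki67: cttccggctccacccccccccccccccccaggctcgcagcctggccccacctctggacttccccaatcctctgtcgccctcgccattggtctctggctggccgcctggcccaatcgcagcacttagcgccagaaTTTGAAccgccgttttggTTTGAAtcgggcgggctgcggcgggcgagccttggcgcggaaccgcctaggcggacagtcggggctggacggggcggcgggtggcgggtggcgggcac

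**Figure D4:**
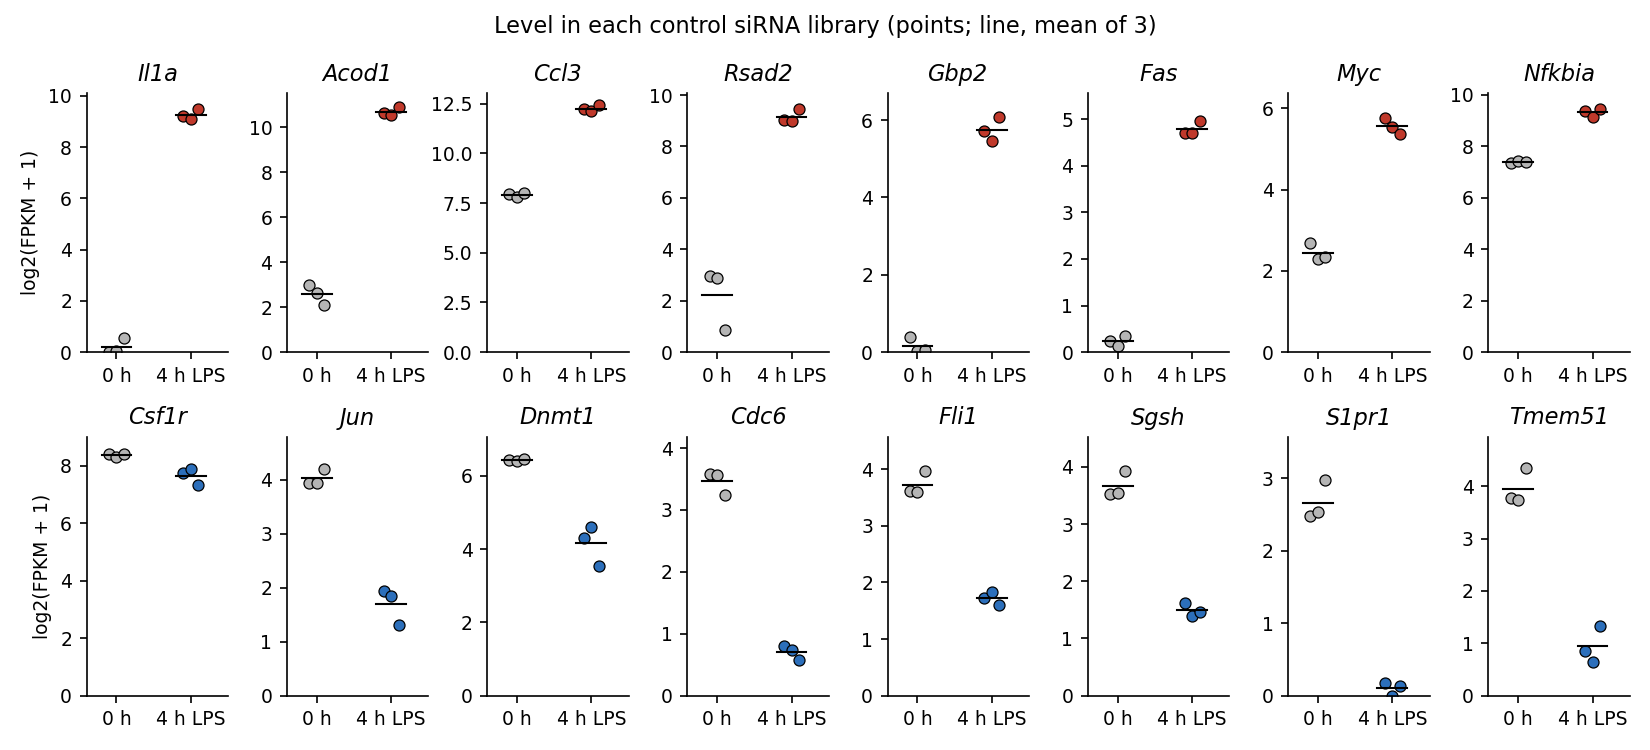
Level of 16 genes (panels, log2(FPKM + 1), axes start at 0) in each of 3 libraries without LPS (grey) and 3 after 4 h of LPS (red, rose; blue, fell); lines are means. In all 16 genes the groups do not overlap, which the naming rule required of some of them. Rsad2, an interferon-stimulated gene, is lowest in replicate 3 without LPS.

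Energy metabolism changed gene by gene and by less. Of 40 glycolysis, pentose phosphate and HIF target genes 8 rose (20%) and 13 fell (32.5%), the falls near the 32.9% of all genes (median 0.03). In all 4 scalings 1 rose (2.5%) and 6 fell (15%), against 11.6% and 20.5% of all genes. The list took 0.867% ± 0.127 of all FPKM without LPS and 0.956% ± 0.0689 after it (SD, n = 3, 2-sided exact permutation p = 0.4). Slc2a6, a glucose transporter family member, rose by 1.66 ± 0.13, whereas Eno2 (enolase 2) went from 9.53, 9.12 and 12.5 to 2.59, 2.12 and 3.49 FPKM and Pdk1, which blocks pyruvate entry into the citric acid cycle, fell by 1.23 ± 0.15 on the log2 scale. Cpt1a, the gate of mitochondrial fatty acid import, fell by 1.39 ± 0.12. Of 71 nuclear-encoded respiratory chain genes 8 rose and 9 fell (11.3% and 12.7%), against 15.3% and 32.9% of all genes, and 1 of these calls held in all 4 scalings. Without the LPS replicate 3, 4 of the 71 fell. All 13 mitochondrially encoded mRNAs fell by between 0.41 and 0.56 on the log2 scale as deposited, and 5 fell in all 4 scalings, so most of these calls depended on the scaling.

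Of 28 cholesterol synthesis and uptake genes 14 fell as deposited and 1 rose (median -0.30, against -0.17 of all genes), and 8 fell in all 4 scalings, or 28.6% against 20.5% of all genes. Dhcr7, the last enzyme of the Kandutsch-Russell branch, was at 5.70, 4.97 and 5.19 FPKM without LPS and at 0.754, 1.10 and 0.751 FPKM after it. Among 24 LXR target, efflux and fatty acid synthesis genes 13 fell and 4 rose, 9 and 2 of these in all 4 scalings (median -0.46). Scd2, a fatty acid desaturase, went from 249.9, 243 and 294 to 75.5, 78.7 and 57.8 FPKM, and the groups did not overlap. Its regulator Srebf1 fell by 1.21 ± 0.13 on the log2 scale, and Hilpda, a lipid droplet protein, rose by 1.07 ± 0.21.

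Protein production and turnover leaned upwards. Of 33 proteasome genes 22 rose and 1 fell (median 0.36), 14 rose in all 4 scalings, and Psma6, a core subunit, went from 75.2 ± 4.51 to 152 ± 6.29 FPKM. Of 47 ribosome biogenesis genes 20 rose and 3 fell (median 0.26), 12 rose in all 4 scalings, led by Rrs1 at 0.86 ± 0.07. Without the 0 h replicate 3, 15 of these 47 and 18 of the proteasome genes rose. Of 41 tRNA synthetases and translation factors 20 rose and 3 fell (median 0.31), and 14 rose in all 4 scalings. Eef2, the factor that moves the ribosome along mRNA, was at 641, 648 and 769.7 FPKM without LPS and at 1399, 1466 and 1545 FPKM after it, and its inhibitory kinase Eef2k and the repressor of cap-dependent translation Eif4ebp2 fell by 0.80 ± 0.23 and 1.16 ± 0.10 on the log2 scale. Genes whose names begin with Rpl or Rps followed by a digit or p, 96 genes that are mostly ribosomal proteins but include S6 kinases such as Rps6ka2, took 5.23% ± 0.135 of all FPKM without LPS and 5.44% ± 0.170 after it, groups that overlapped (2-sided exact permutation p = 0.3). Without mitochondrially encoded genes in the total, the difference turned to -0.134 percentage points.

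Folding, lysosome and autophagy genes had no common direction or leaned downwards. Of 36 unfolded protein response genes and chaperones 11 rose (30.6%) and 10 fell (27.8%), and without the 0 h replicate 3, 7 rose. In all 4 scalings 5 rose (13.9%) and 7 fell (19.4%), near the 11.6% and 20.5% of all genes. Hspa8, the constitutive cytosolic chaperone, rose by 1.16 ± 0.16, and the ER stress sensors Eif2ak3 (PERK) and Atf6 fell from 7.95 ± 1.19 to 2.16 ± 0.328 FPKM and from 32.7 ± 4.09 to 16.1 ± 0.722 FPKM. Of 48 lysosome genes 9 rose (18.8%) and 10 fell (20.8%). In all 4 scalings 5 rose (10.4%) and 6 fell (12.5%), neither above the share of all genes. The lysosome list took 1.01% ± 0.0804 of all FPKM without LPS and 1.01% ± 0.0441 after it (SD, n = 3). Within it Sgsh, a heparan sulfatase, was at 10.5, 10.7 and 14.2 FPKM without LPS and at 2.07, 1.63 and 1.76 FPKM after it, whereas Ctsz (cathepsin Z) rose by 1.04 ± 0.08. Of 34 autophagy genes 17 fell, 10 of them in all 4 scalings, and 3 rose (median -0.31). Sqstm1 (p62), a cargo receptor, went from 84.5, 76.5 and 98.5 to 306, 305 and 349 FPKM, and its relative Nbr1 fell by 1.21 ± 0.18 on the log2 scale. Among 14 TRAPP subunits, which tether vesicles and include Synbindin, 7 fell and 7 were not called as deposited. In all 4 scalings 3 fell (21.4%), near the 20.5% of all genes. Trappc8 led with a fall of 0.90 ± 0.10.

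Chromatin genes mostly fell: 40 of 60 histone and DNA modifiers fell and 4 rose (median -0.50), and 25 fell in all 4 scalings. Kmt2c and Kmt2a, H3K4 methyltransferases, fell by 1.69 ± 0.13 and 1.21 ± 0.12 on the log2 scale. The H3K27 demethylase Kdm6b (JMJD3) rose against them, from 2.70, 3.30 and 3.91 to 14.7, 12.1 and 17.8 FPKM, as did Setdb2 by 1.62 ± 0.14. Of 15 clock genes 9 fell, 5 of them in all 4 scalings, and 1 rose, namely Arntl (BMAL1) by 0.84 ± 0.13, and the clock repressors Nr1d2 and Per1 fell by 1.01 ± 0.16 and 0.94 ± 0.14. Of 268 tested Zfp zinc finger genes 113 fell (42.2%) and 5 rose (1.87%). In all 4 scalings 62 fell (23.1%), near the 20.5% of all genes, and 4 rose (1.49%, against 11.6%).

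The cytoskeleton list held 21 rises and 9 falls among 51 genes, 14 and 6 of these in all 4 scalings (median 0.11). Marcksl1, a membrane-bound actin regulator, was at 43.0, 43.6 and 30.4 FPKM without LPS and at 638, 627 and 731 FPKM after it. Actg1, cytoplasmic gamma-actin, rose from 139.9 ± 13.6 to 469 ± 23.4 FPKM. Tubb5, a beta-tubulin, fell from 254 ± 3.11 to 145 ± 21.1 FPKM.

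The deepest falls were in genes of several kinds. The largest called fall on the log2(FPKM + 1) scale was that of C130050O18Rik, a gene known by its clone name only. Named after its values were seen, it went from 67.5, 88.4 and 72.8 to 4.37, 4.49 and 2.50 FPKM (-4.03 ± 0.17). Tmem51, a membrane protein at chr4:142030992-142084304, was at 12.7, 12.4 and 19.3 FPKM without LPS and at 0.813, 0.568 and 1.51 FPKM after it (-3.01 ± 0.25, limma adjusted p = 2.42e-06). Hyal1, a hyaluronidase, went from 93.6, 73.1 and 74.5 to 21.0, 5.21 and 7.63 FPKM, with the fall smallest in LPS replicate 1. Angptl2, a secreted angiopoietin-like protein, fell by 2.89 ± 0.18, Fzd7, a Wnt receptor, by 2.61 ± 0.20, Slc19a2, a thiamine transporter, by 2.41 ± 0.20, Smad6, an inhibitor of BMP signalling, by 2.48 ± 0.18 and Lyl1, a blood cell transcription factor, by 2.29 ± 0.12 on the log2 scale. The rule that picked the deepest falls took only genes whose groups did not overlap, so the lack of overlap in them was fixed in advance. By loss of mean FPKM, with mitochondrially encoded, clone-named and predicted genes left out, the surface gene Csf1r, the S100 protein S100a4 (1054 ± 82.0 to 716 ± 48.2) and the actin regulator Cap1 (335 ± 12 to 131 ± 5.67) were among the 15 largest.

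Promoter letters were counted in the 250 bases before the RefSeq start on both strands, for the 6682 tested genes with 1 listed start, as a description of these windows only. The kB letters occurred in 6.45% of 62 genes that rose by at least 8-fold, 1.41% of all tested genes and 1.39% of all 22862 promoters listed. ISRE letters occurred in 25.8% of the genes that rose by at least 8-fold, 2.98% of tested genes and 3.11% of all promoters, and in 35.2% of 54 interferon-stimulated genes. AP-1 letters, TGANTCA, occurred in 24.2%, 4.04% and 6.96%. E2F letters occurred in 11.2% of genes that fell by at least 2-fold, 27.0% of 37 G1/S genes, 8.55% of tested genes and 4.44% of all promoters. CHR letters occurred in 30.8% of 39 G2/M genes, 10.9% of tested genes and 16.7% of all promoters. They were no more frequent in genes that fell by at least 2-fold (12%) than in genes that rose by 2- to 8-fold (13.3%) or by at least 8-fold (19.4%), and they occurred in 25.9% of interferon-stimulated genes. The windows of Il1a, Il1b, Tnf and Acod1 held 0 matches to the kB letters, which says only that these letters are not in these windows.

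**Figure D5:**
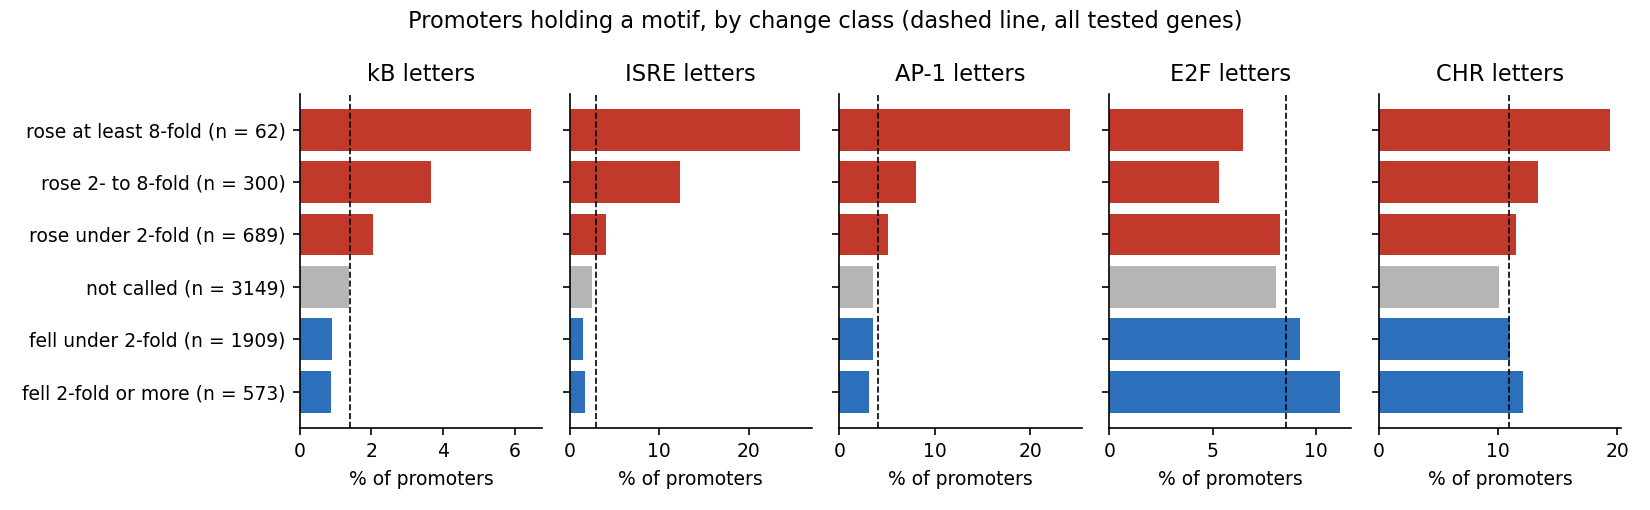
Percent of promoters (horizontal, 250 bases before the start) that hold the kB, ISRE, AP-1, E2F or CHR letters, in 6 classes of change with LPS (number of genes with a promoter in brackets); dashed lines are all tested genes. ISRE letters stand at 25.8% and AP-1 letters at 24.2% in the genes that rose by at least 8-fold, and E2F letters at 11.2% in the genes that fell by at least 2-fold.

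The response of control siRNA cells was set beside that of Synbindin siRNA cells under the same test, which uses separate libraries for each. Of 733 genes that rose by at least 2-fold in control siRNA cells 700 also rose in Synbindin siRNA cells, and of 1036 that fell by at least 2-fold 969 also fell. Their median log2 fold changes were 1.66 and -1.29 in control siRNA cells and 1.81 and -1.26 in Synbindin siRNA cells. The difference itself was called for 8 of 13078 genes (0.0612%) by limma, and the unadjusted p was under 0.05 for 1480. Of the 733 risen genes 4 were among the 8, and none of the 1036 fallen genes was. The count of 8 became 0 without control siRNA LPS replicate 1 or without any 1 of the Synbindin siRNA LPS libraries, and 20 without control siRNA LPS replicate 3.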

How the data were processed

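RNA from RAW264.7 cells was sequenced from strand-specific libraries, per the labels' protocols. The authors deposited 1 table of FPKM values for 53801 gene records, made with HISAT2 and StringTie on GRCm38 according to the submitters' processing notes. Versions and annotation were not given in the sources used here. Among these records 53706 matched GENCODE M21 by identifier, 27 symbols that a spreadsheet had turned into dates were restored by identifier, and 254 records share a symbol. The 13078 genes that reached FPKM 1 in 3 or more of the 12 libraries were tested with limma 3.58.1 in R 4.3.3 on log2(FPKM + 1) with an intensity trend, 1 mean per group over all 12 libraries, and Benjamini-Hochberg adjusted p under 0.05. In simulated data for these 13078 genes, 100 were changed 2-fold and 100 4-fold, all with a mean of FPKM 1 or more at 0 h. The LPS comparison recovered 77% of the 2-fold and 93% of the 4-fold changes, with 11 false calls and 0 of the wrong sign. Far fewer genes changed there than in the data, and no shift in scaling was simulated, so effects of scaling on the calls could not show. FPKM carry no counts. Depth was estimated from the steps of low values, of which 7.24% to 11.7% lay within 1% of whole steps. Counts were therefore not recovered, and the depth estimates are not reliable. Genes were named by rule: the 25 highest and 25 lowest changes without overlap, the 15 largest rises and falls in mean FPKM, up to 6 called members per list, cell markers, Trappc4 and the genes whose response differed between siRNAs, with clone, predicted and pseudogene names left out of the ranks. The members and lists were chosen with earlier results of these data known. Alternatives changed the pseudocount, filter, scaling, variance model, fold threshold, replicate block and libraries.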

Additional observations from a re-analysis of the deposited data

Results flagged for a closer look

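The LPS response differed between Synbindin siRNA and control siRNA cells, by the interaction term of limma at a Benjamini-Hochberg adjusted p under 0.05, in the 8 genes below. Differences are log2 changes in Synbindin siRNA cells minus those in control siRNA cells. Kpna1, an importin alpha, differed by 0.98 (adjusted p = 0.0161), with a change of -0.28 in control siRNA cells and 0.70 in Synbindin siRNA cells. Gas2l3, a cytoskeletal linker, differed by -1.54 (adjusted p = 0.0161), from 0.24, which was not called, to -1.30. Csf2, encoding GM-CSF, differed by 2.19 and Tnfsf15, the TNF family ligand TL1A, by 1.42 (both adjusted p = 0.0161). Zc3h12a, which degrades cytokine mRNAs, differed by 0.87 (adjusted p = 0.0271) and Tnf by 0.85 (adjusted p = 0.0344). Dynll1, a dynein light chain, differed by -1.61 and Gm26377, a predicted microRNA gene, by -0.59 (both adjusted p = 0.0388). Gm26377 (chr9:78478528-78478635) lies inside Eef1a1 (chr9:78478449-78489151) on the same strand, so their reads cannot be told apart here.

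Of 12 fits that each left out 1 library, the difference was called for Kpna1 and Gas2l3 in 8, Csf2 in 7, Tnfsf15 in 6, Zc3h12a and Tnf in 2, and Dynll1 and Gm26377 in 1.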

How the results depend on the processing

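The count of 6300 changed genes became 6243 with a pseudocount of 0.1, 6265 with no filter, 4631 with FPKM of at least 5 in 3 libraries, 6313 with no intensity trend, 5792 with the 6 control siRNA libraries alone and 5602 to 6322 without 1 library. With a fold change of at least 2 as well it was 1769 (733 higher, 1036 lower), and with limma's treat against a fold change of 1.5 it was 1578 (660 higher, 918 lower). Median-ratio scaling gave 3158 higher genes. The difference between siRNAs was called for 5 genes with a pseudocount of 0.1, 4 without the trend and 0 to 20 without 1 library. With the replicate block 6558 genes changed and 10 differed between siRNAs. Same-numbered libraries deviated together only weakly (r = 0.0737, 0.0841 and 0.139), although each correlated best with its own number. The share of genes named Rpl or Rps changed by -0.134 percentage points when mitochondrially encoded genes were left out of the total, against 0.209 with them. The lysosome share changed by -0.0399 to 0.0404 points without 1 library, turning positive without control siRNA 0 h replicate 3 (0.0404) or LPS replicate 2 (0.0245). Cd68 was at -0.38 with quantile normalization. The FPKM values carry no counts, so no counting error can be given for weak genes, and the cause of these dependences was not tested.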

Other observations

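Some neighbouring genes rose together. In GENCODE M21 order there were 18 runs of at least 4 neighbouring tested genes that all rose by at least 2-fold, and 6 runs that all fell, beside 733 genes that rose and 1036 that fell by that much in all. The longest, at chr1:173630917-174031810, holds 11 genes of the interferon-inducible Ifi200 cluster, which includes DNA-binding proteins, with log2 changes of 1.40 to 3.96. Runs of 8 genes lie at the Ccl chemokine cluster (chr11:83511736-83706268), the Oas cluster of antiviral synthetases (chr5:120730333-120907521) and the Gvin1 cluster of very large GTPases (chr7:105824223-106604035). The Ifit cluster (chr19:34550694-34650009) holds 6 and the Bcl2a1 cluster 5. Members of these families resemble each other, so the split of reads between copies is uncertain. The falling runs hold 4 genes each.

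The share of genes that rose or fell also varied with the starting level. Of 949 tested genes under 1 FPKM at 0 h 37.9% rose and 1.69% fell, as the filter requires for many of them, whereas of 5193 genes at 5 to 20 FPKM 12.9% rose and 40.6% fell. Among protein-coding genes the median span on the genome was 14.2 kb for those that rose by at least 8-fold, 18.5 kb for those not called and 34.3 kb for those that fell by at least 2-fold. Of 709 tested long non-coding genes 106 rose (15%) and 194 fell (27.4%), against 15.3% and 32.9% of all genes. Gapdh, often used as a reference and named after its values were seen, was listed at 6.72, 22 and 26.9 FPKM without LPS and at 34, 28.5 and 34.8 FPKM after it, with many near-identical pseudogenes, and was not called.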
